A study of Mus musculus with 2 samples.

Results

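The hexose carriers examined here are 10 genes of 2 families, the facilitative carriers Slc2a1, Slc2a3, Slc2a4, Slc2a6, Slc2a8, Slc2a9, Slc2a10 and Slc2a12 and the sodium-linked carriers Slc5a1 and Slc5a2, out of 55536 genes in the deposited table. They were taken by symbol from GENCODE mouse release M21 as possible entry routes for a glucoside. The rule uses no measured value, but it was set with earlier results of these data known. The samples were 2 mammary tumors of MMTV-PyVT mice, which carry the polyoma virus middle T antigen under the mouse mammary tumor virus promoter, active mainly in mammary epithelium. 1 mouse had received DMSO, the vehicle, and the other cyanidin-3-glucoside (C3G), a plant pigment made of an anthocyanidin with a glucose attached. Treatment began at ductal hyperplasia and tumors were taken at a set tumor burden. Both groups carried the transgene. Age, dose and strain background are not given in the sources used here.

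Facilitative carriers let hexoses move down their gradient through the membrane, whereas sodium-linked carriers use the sodium gradient kept up by the sodium pump to bring glucose in against its own. The families differ in substrate, place in the cell and control: some carriers sit at the cell surface at all times, some move there on insulin, and some stay on inner membranes. The mammary epithelium takes up glucose for growth and, in lactation, to make lactose, and tumors commonly take up much glucose.

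Values are in TPM, transcript abundances corrected for gene length and scaled to 1000000 per library, so that levels of different genes can be compared. The reads behind each value were recovered from the TPM and came to 12192275 for the DMSO tumor and 16081110 for the C3G tumor. Each interval in parentheses is a 95% interval from those reads. It covers counting error only. With 1 library per group nothing was tested, there is no replicate check, and a difference between the libraries cannot be told apart from a difference between individual mice. A threshold of size stood in for a test. It required 5 TPM in at least 1 tumor and a log2 ratio, log2((C3G TPM + 1)/(DMSO TPM + 1)), of 1 or more in either direction, and genes past it are said to be called. Among 12780 genes that reached 5 TPM, 396 (3.1%) were called higher and 550 (4.3%) lower in the C3G tumor. When log2 ratios were centred on genes with a mean of at least 10 TPM, a shift of 0.12, these counts were 298 and 663. The samples expressed the epithelial markers of the labelled tissue: all 12 luminal epithelial genes were measured, among them Epcam at 1484 and 1399 TPM and Krt8 at 1890 and 1420 TPM with DMSO and C3G. Of the 11 that reached 5 TPM, Krt19 (678 and 246 TPM) and Foxa1 (19.2 and 7.49 TPM) were called lower, beside 4.3% of all such genes. The list of 12 summed to 8704 and 6663 TPM.

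Slc2a9, a carrier of urate and hexoses, had the largest ratio between the tumors. The DMSO tumor had 5.31 TPM of it and the C3G tumor 14.0 TPM, which is 2.64-fold as much (2.14 to 3.27), and it was the only one of the 6 carriers with at least 5 TPM to be called by size. The most abundant carriers were nearly level: Slc2a1 stood at 64.7 and 71.5 TPM and Slc5a1 at 34.2 and 35.3 TPM. Slc2a4 and Slc2a10 were 1.56-fold and 1.57-fold higher with C3G, short of the size threshold. Slc2a3 and Slc2a12 were barely detected and Slc5a2 had no read in either library.

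**Figure D1:**
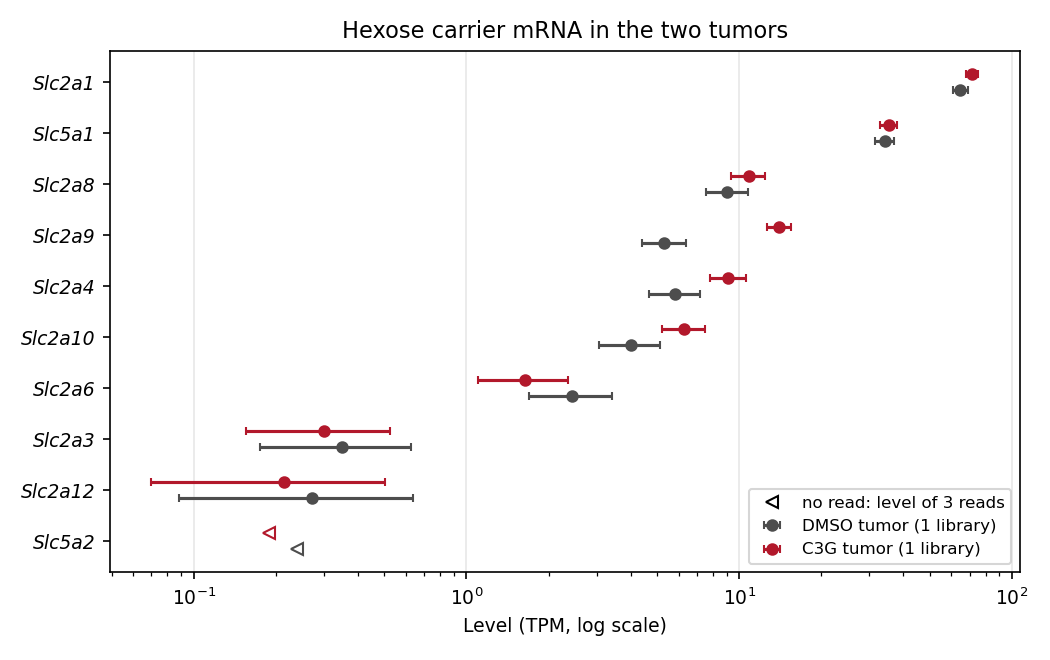
Level of each carrier in the DMSO tumor (grey) and the C3G tumor (red), in TPM on a log axis. Points are the 2 libraries and bars the 95% Poisson interval of the reads; open triangles mark the level of 3 reads for Slc5a2, which had none. Slc2a1 and Slc5a1 lead in both tumors, and the bars of Slc2a9 stand clear of each other.

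Of the 10 carriers, RefSeq start-site windows on GRCm38.p6 were given for 7. The bases before the start that RefSeq gives are shown for the most abundant facilitative carrier, the sodium-linked carrier that was detected, and the carrier called by size. Each run holds the 250 bases before the RefSeq start, 5′ to 3′ on the strand of the gene. Capitals mark, on either strand, the E-box CACGTG, the hypoxia response cores ACGTG and GCGTG, and the GC box GGGCGG.
Slc2a1, chr4:119108495-119108744, plus strand: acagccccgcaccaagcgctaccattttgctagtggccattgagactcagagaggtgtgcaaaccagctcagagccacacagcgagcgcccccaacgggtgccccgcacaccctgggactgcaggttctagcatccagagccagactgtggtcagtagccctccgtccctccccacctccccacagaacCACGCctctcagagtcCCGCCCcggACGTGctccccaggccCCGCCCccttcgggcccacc
Slc5a1, chr5:33103969-33104218, plus strand: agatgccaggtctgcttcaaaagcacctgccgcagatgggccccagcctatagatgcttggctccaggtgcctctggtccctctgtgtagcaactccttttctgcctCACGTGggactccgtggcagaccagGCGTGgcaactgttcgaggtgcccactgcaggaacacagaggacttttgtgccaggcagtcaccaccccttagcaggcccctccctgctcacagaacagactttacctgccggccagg
Slc2a9, chr5:38483386-38483635, minus strand: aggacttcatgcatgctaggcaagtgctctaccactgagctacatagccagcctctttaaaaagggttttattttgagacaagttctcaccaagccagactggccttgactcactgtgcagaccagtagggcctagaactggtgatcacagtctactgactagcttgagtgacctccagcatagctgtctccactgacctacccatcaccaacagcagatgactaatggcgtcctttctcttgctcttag

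The Slc2a1 window held 1 ACGTG, 1 GCGTG and 2 GC boxes, and 66.4% of its bases were G or C. The Slc5a1 window held 1 E-box, whose letters contain ACGTG on both strands, and 1 GCGTG. None of these motifs, and neither CCAAT nor TATAAA, was found in the Slc2a9 window, of which 48.8% was G or C. Over all 32851 such windows, CACGTG was present in 6.02%, ACGTG in 16.6%, GCGTG in 28.2%, GGGCGG in 32.7%, CCAAT in 33.8% and TATAAA in 12.4%. These are matches of letters and not known binding sites. The RefSeq start of Slc2a9 lay 19758 bases downstream of the outermost start of the gene in GENCODE. Its window therefore lies inside the gene and may not be a promoter, so its letters are not on a par with those of Slc2a1 and Slc5a1. Values per gene do not tell which start was used.

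Slc2a1 encodes GLUT1, the carrier of basal glucose uptake in many cells and the main glucose carrier of the mammary epithelium. The gene lies on mm10 chromosome 4, 119108711 to 119137983, plus strand. Of its exonic bases, 2.99% overlap Gm12868 on the opposite strand. Its level was 64.7 TPM (60.8 to 68.9) in the DMSO tumor, from 984 reads, and 71.5 TPM (67.8 to 75.4) in the C3G tumor, from 1377 reads. The C3G tumor was thus 1.10-fold higher (1.02 to 1.20), a log2 ratio of 0.14 on the scale with 1 TPM added. This lay close to the median of 0.10 over all 17468 genes with a mean of at least 1 TPM, and with the centring above it was 0.02. Slc2a1 made up 51.3% of the summed carrier TPM with DMSO and 47.9% with C3G, and its mean level was above that of 87.8% of the genes with a mean of at least 1 TPM. Over these 2 libraries, the pathway genes with the log2 ratio closest to that of Slc2a1, of 105 compared, were the pyruvate dehydrogenase kinase gene Pdk1 (34.3 and 37.9 TPM), the arrestin-like gene Arrdc4 (52.4 and 57.9 TPM) and the Rab GTPase-activating gene Tbc1d1 (11.6 and 12.9 TPM). The median of the 105 was 0.17, so Slc2a1 lay near their middle, and nearness in a single ratio does not show shared control.

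Slc2a3 encodes GLUT3, a high-affinity glucose carrier of neurons and some blood cells (chromosome 6, 122727809 to 122801640, minus strand). It had 11 reads with DMSO and 12 with C3G, or 0.350 and 0.301 TPM, a ratio of 0.861 (0.348 to 2.15). The C3G and DMSO tumors could not be told apart at this depth. Neutrophils are a blood cell known for this carrier, and of 10 neutrophil genes Ly6g, Retnlg and Elane had no read in either library, while the list summed to 36.2 TPM with DMSO and 57.7 TPM with C3G. Most of that sum was S100a8 (28.9 and 50.3 TPM), and Csf3r, the other gene to reach 5 TPM, stood at 5.11 and 4.49 TPM.

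Slc2a4 encodes GLUT4, the carrier that insulin brings to the surface of fat and muscle cells (chromosome 11, 69942539 to 69948188, minus strand). The DMSO tumor held 88 reads of it, or 5.84 TPM (4.68 to 7.19), and the C3G tumor 174 reads, or 9.10 TPM (7.80 to 10.6). The ratio was 1.56 (1.20 to 2.04), with a log2 ratio of 0.56, so the intervals of the libraries did not overlap but the gene was not called by size. Fat cell markers were also higher in the C3G library. All 15 adipocyte genes were above 0 on the log2 scale, and none was without reads. Of the 13 that reached 5 TPM, 11 were called higher, beside 3.1% of all genes that reached it. The 15 summed to 293 TPM with DMSO and 1529 TPM with C3G. Adiponectin (Adipoq) stood at 12.9 and 64.8 TPM and perilipin 1 (Plin1) at 1.29 and 9.43 TPM. The part of fat cells in the Slc2a4 value was not tested. In bulk tumor RNA, more cells of a type and more RNA per cell cannot be told apart. Skeletal muscle, the other tissue known for Slc2a4, was nearly absent by its markers: Ckm, Myh1, Tnnc2 and Pvalb had no read in either library, and all 12 summed to 7.80 TPM with DMSO and 6.33 TPM with C3G.

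Slc2a12 encodes GLUT12, a carrier first found in a breast cancer cell line and also moved by insulin (chromosome 10, 22645011 to 22704285, plus strand). It had 5 reads in each library, or 0.272 TPM with DMSO and 0.215 TPM with C3G, a ratio of 0.789 (0.182 to 3.43). No difference was detectable at this depth. Of its exonic bases 9.61% overlap Tbpl1 on the opposite strand, and the library kit does not keep strand.

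The carriers of inner membranes were detected at low to moderate levels. Slc2a8 encodes GLUT8, a carrier of endosomes and lysosomes (chromosome 2, 32972990 to 32982083, minus strand). Its levels were 9.06 TPM (7.54 to 10.8) for DMSO and 10.8 TPM (9.35 to 12.5) for C3G, a ratio of 1.20 (0.950 to 1.51) whose interval includes 1. Slc2a10 encodes GLUT10, known from arterial tortuosity syndrome and from the transport of oxidised vitamin C (chromosome 2, 165503787 to 165519917, plus strand). From 62 and 123 reads its levels were 4.01 TPM for DMSO and 6.27 TPM for C3G, a ratio of 1.57 (1.14 to 2.16) and a log2 ratio of 0.54. Slc2a6 encodes GLUT6, a lysosomal carrier known from macrophages (chromosome 2, 27021363 to 27027998, minus strand). It was the one carrier above a mean of 1 TPM with a lower value in the C3G tumor, at 2.44 and 1.64 TPM from 34 and 29 reads. The ratio of 0.673 (0.396 to 1.14) includes 1. Macrophage genes had a median log2 ratio of -0.15 and a summed level of 1490 and 1290 TPM, and their part in the Slc2a6 value was not tested.

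Slc2a9 encodes GLUT9, which carries urate and, less readily, hexoses (chromosome 5, 38349273 to 38503143, minus strand). It had 117 reads with DMSO and 391 with C3G. Its level was 5.31 TPM (4.39 to 6.36) and 14.0 TPM (12.6 to 15.5), intervals that lie well apart. The log2 ratio was 1.25. Among the carriers it held the fifth place with DMSO and the third with C3G, with 4.21% and 9.38% of the summed carrier TPM. The call held under 6 of 8 alternative settings. It was lost with a pseudocount of 5 TPM, where the log2 ratio was 0.88, and where calls required 20 TPM, which Slc2a9 reaches in neither tumor. With the trend of log2 ratio on gene length removed the log2 ratio was 1.07. No exonic base of Slc2a9 overlapped another gene, and none of its 50-base windows occurred in a transcript of another gene. Marker levels of several cell types differed between the libraries, in both directions. Basal and myoepithelial markers summed to 1195 TPM with DMSO and 614 TPM with C3G, and T cell markers to 68.5 and 23.4 TPM. The B and plasma cell and the squamous lists also summed lower with C3G. Adipocyte and endothelial markers were higher in the same C3G library. The 10 endothelial genes summed to 45.0 TPM with DMSO and 111 TPM with C3G. Of the 9 that reached 5 TPM, 5 were called higher, beside 3.1% of all genes that reached it. The part of fat cells, endothelial cells or any other cell type in the Slc2a9 value was not tested.

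Because Slc2a9 is best known for urate, a list of 12 genes of urate formation and transport was drawn up after its value was seen. Only 3 of the 12 reached a mean of 1 TPM, and none was called by size. Xanthine dehydrogenase (Xdh), which forms urate and is also a milk fat globule protein, stood at 56.0 and 92.2 TPM, a ratio of 1.65 (1.57 to 1.73). Abcg2, a urate exporter, stood at 4.98 and 8.53 TPM, a ratio of 1.71 (1.43 to 2.06). Purine nucleoside phosphorylase (Pnp) stood at 24.5 and 30.7 TPM. The kidney urate exchanger Slc22a12 (URAT1) had no read.

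**Figure D2:**
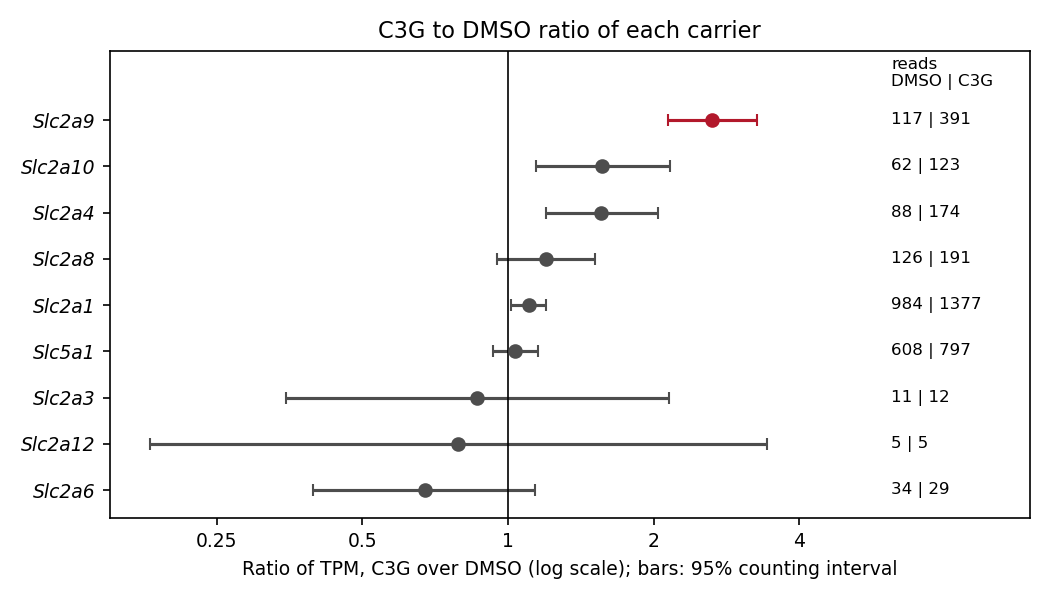
Ratio of TPM in the C3G tumor over the DMSO tumor for the 9 carriers with reads, on a log axis, with 95% counting intervals and the reads of each library at the right. Slc2a9 (red, called by size) is at 2.64; the intervals of Slc2a10, Slc2a4 and Slc2a1 also lie above 1, and the other 5 include it.

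Slc5a1 encodes SGLT1, which takes up glucose and galactose with sodium and is best known from the small intestine (chromosome 5, 33104219 to 33162870, plus strand). It was the second most abundant carrier in both tumors, at 34.2 TPM (31.5 to 37.0) with DMSO and 35.3 TPM (32.9 to 37.9) with C3G, from 608 and 797 reads. The ratio was 1.03 (0.930 to 1.15), so any difference was within counting error, and its sign changed between settings, with log2 ratios from -0.10 to 0.05. Slc5a2, which encodes SGLT2, the glucose carrier of the kidney tubule (chromosome 7, 128265657 to 128272430, plus strand), had no read in either library. At its length, the detection floor of 3 reads is 0.239 TPM with DMSO and 0.188 TPM with C3G, and the exact 95% interval of a count of 0 reaches 0.294 and 0.232 TPM. Of its exonic bases 20.6% overlap BC017158 on the opposite strand.

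By level, the DMSO tumor ran Slc2a1, Slc5a1, Slc2a8, Slc2a4, Slc2a9, Slc2a10, Slc2a6, Slc2a3, Slc2a12 and Slc5a2. The counting intervals of adjacent carriers overlapped from Slc2a4 to Slc2a6 and from Slc2a3 to Slc5a2, so those neighbours are not separated. Within the first run, Slc2a6 (1.69 to 3.41 TPM) lay clear of Slc2a4 (4.68 to 7.19 TPM) and Slc2a9 (4.39 to 6.36 TPM). In the C3G tumor the order differed by the place of Slc2a9, ahead of Slc2a8, and there the neighbours not separated were Slc2a8 with Slc2a4 and the last 3 carriers. Summed over the 10 carriers the level was 126 TPM with DMSO and 149 TPM with C3G, a ratio of 1.18. Slc2a1 and Slc5a1 together gave 78.4% of it with DMSO and 71.6% with C3G. The other 8 summed to 27.3 and 42.4 TPM.

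As a group, 7 of the 10 carriers had a mean of at least 1 TPM, and 6 of the 7 were above 0 on the log2 scale with a median of 0.23 (0.11 under centring), while Slc5a1 was below 0 under centring, with the length trend removed and on reads scaled to library depth. Over all genes with that mean, 58.9% were above 0 and the median was 0.10. The carrier called by size was 1 of the 6 that reached 5 TPM, beside 3.1% of all genes called higher. Of the same 6, 4 had a counting interval above 1 and none below. That applied to 42.2% and 20.7% of all genes that reached 5 TPM, so a counting interval clear of 1 was common in these libraries.

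**Figure D3:**
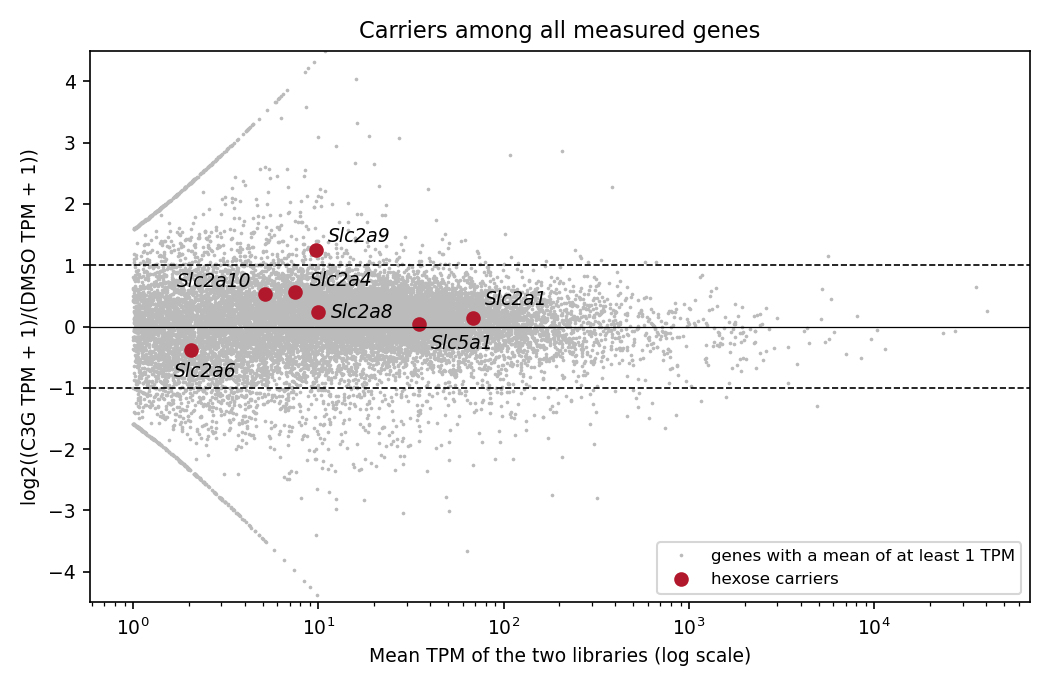
Log2 ratio of C3G over DMSO (1 TPM added) against mean TPM for the 17468 genes with a mean of at least 1 TPM (grey; 3 lie outside the axis) and for the 7 carriers above that level (red). Dashed lines mark a log2 ratio of 1 in size; Slc2a9 at 1.25 lies above the upper line and the other carriers between the lines.

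Most of the remaining family members had few reads or none in these tumors. Of the other facilitative carriers, Slc2a2, Slc2a5, Slc2a7 and Slc2a13 had 0 to 8 reads with DMSO and 1 to 13 with C3G. Slc50a1, a sugar carrier of the Golgi membrane, was at 61.5 and 58.7 TPM, beside 64.7 and 71.5 TPM for Slc2a1, with a ratio of 0.954 (0.833 to 1.09). Among 11 other genes of the Slc5a family, 6 reached 5 TPM and Slc5a4a, Slc5a4b and Slc5a12 had no read. Of the 6, 1 was called lower and none higher, beside 4.3% and 3.1% of all genes that reached 5 TPM. Slc5a5, the iodide carrier of thyroid and lactating breast, was called lower, at 40.1 TPM against 12.4 TPM in the C3G tumor, or 3.24-fold (2.75 to 3.84), and was called lower under all 8 alternative settings. Slc5a9, or SGLT4, a sodium-linked carrier of mannose and fructose, stood at 23.7 and 44.4 TPM, a ratio of 1.87 (1.69 to 2.08) and a log2 ratio of 0.88, short of the threshold. Its level was below that of Slc5a1 with DMSO and above it with C3G. The myo-inositol carrier Slc5a3 stood at 9.36 and 16.0 TPM, the choline carrier Slc5a7 at 6.38 and 4.35 TPM and the short-chain monocarboxylate carrier Slc5a8 at 82.0 and 92.4 TPM.

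Once inside the cell, glucose is held by phosphorylation. None of 7 hexose-phosphorylating genes that reached 5 TPM was called by size, and the list of 11 had a median log2 ratio of -0.07. The ubiquitous hexokinase Hk1 stood at 101 and 90.1 TPM and the insulin- and growth factor-responsive Hk2 at 16.8 and 15.9 TPM, both named after their values were seen. Ketohexokinase (Khk), which phosphorylates fructose, was at 18.5 and 10.9 TPM, a ratio of 0.592 (0.457 to 0.765). Gne, of sialic acid synthesis, was at 47.2 and 65.0 TPM. Of the glucose release genes, Slc37a4, the glucose 6-phosphate carrier, stood at 13.2 and 18.7 TPM and the phosphatase G6pc3 at 45.1 and 45.4 TPM.

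Genes that place carriers at the surface or remove them showed no call. Of 23 trafficking genes none was called, with 14 above and 9 below 0 and a median of 0.14. Snx27, a sorting nexin that returns GLUT1 from endosomes to the surface, stood at 16.6 and 29.5 TPM, a ratio of 1.78 (1.60 to 1.98). Tbc1d4, the Akt substrate that holds back GLUT4 vesicles, stood at 18.1 and 28.2 TPM, and the membrane fusion genes Snap23 and Stx4a at 40.5 and 57.8 TPM and at 132 and 94.3 TPM. Of the 7 carrier turnover genes none was called either. Txnip, whose protein binds GLUT1 and promotes its internalisation, stood at 212 and 297 TPM, a ratio of 1.41 (1.34 to 1.47), and its relative Arrdc3 at 108 and 153 TPM, a ratio of 1.42 (1.36 to 1.49).

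In the list of insulin and IGF receptors and substrates, 1 of 7 genes that reached 5 TPM was called higher and none lower. Of all genes that reached it, 3.1% were called higher and 4.3% lower. The median over the 8 with a mean of at least 1 TPM was 0.45, beside 0.10 over all genes with that mean. Irs2, an adaptor of the insulin receptor, stood at 13.5 and 29.2 TPM, a ratio of 2.16 (1.92 to 2.44). Its call was held under 5 of 8 alternatives and was lost under centring, where the log2 ratio was 0.94, under removal of the length trend, where it was 0.86, and with a pseudocount of 5, where it was 0.89. Pdpk1, the kinase that activates Akt, lay just below the threshold at 7.21 and 15.3 TPM, with a log2 ratio of 0.99. It was called under 3 of 8 alternatives, with a pseudocount of 0.1, under rescaling without the most abundant genes and on reads scaled to library depth. Irs1, a related adaptor, stood at 3.78 and 6.19 TPM.

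Among transcription factors known for carrier genes, 1 of 13 that reached 5 TPM was called higher and none lower. The shares over all such genes were 3.1% and 4.3%. The median over the 16 with a mean of at least 1 TPM was 0.44, beside 0.10 over all genes with that mean. Pparg, the fat cell regulator, stood at 2.50 and 6.66 TPM, a ratio of 2.66 (1.78 to 4.08). It is itself among the adipocyte markers that were higher in this library, and the call was lost with a pseudocount of 5 (log2 ratio 0.64) and with the 20 TPM minimum. Hif1a, which drives Slc2a1 in low oxygen, stood at 28.4 and 43.3 TPM, its partner Arnt at 22.8 and 33.8 TPM, and the glucose-sensing factor Mlxip at 40.8 and 60.1 TPM. Of 18 hypoxia target genes none was called and the median was 0.16. Bnip3, a mitophagy receptor, was at 9.67 and 18.4 TPM, the histone demethylase Kdm3a at 20.2 and 28.1 TPM and the prolyl hydroxylase Egln3 at 202 and 265 TPM. Car9, a carbonic anhydrase and a common hypoxia marker, named after its value was seen, was at 29.0 and 24.7 TPM.

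Lactate and pyruvate carriers showed no call, and all 8 measured were above 0 with a median of 0.20. Slc16a1 (MCT1), a lactate carrier, stood at 14.0 and 22.2 TPM, a ratio of 1.58 (1.36 to 1.84), and the mitochondrial pyruvate carrier genes Mpc1 and Mpc2 at 23.7 and 29.5 TPM and at 24.0 and 26.8 TPM. Of the sodium pump and SGLT partners, 1 of 9 that reached 5 TPM was called higher, beside 3.1% of all such genes. The called gene was Sgk1, a kinase known to act on ion and glucose carriers, at 49.3 and 101 TPM, a ratio of 2.04 (1.90 to 2.19). Its log2 ratio of 1.01 was at the threshold, and the call was held under 4 of 8 alternatives, being lost with a pseudocount of 5 (0.96), under centring (0.89), under removal of the length trend (0.84) and on reads scaled to library depth (0.96). The pump regulators Fxyd2 and Fxyd5 were at 5.36 and 2.91 TPM and at 29.6 and 20.8 TPM. In the list of glucoside hydrolysis and lactose synthesis none of 9 was called. The lactose synthase subunits Lalba and B4galt1 stood at 4909 and 6700 TPM and at 116 and 155 TPM, while lactase (Lct), the intestinal enzyme known to split glucosides, had 17 and 9 reads.

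**Figure D4:**
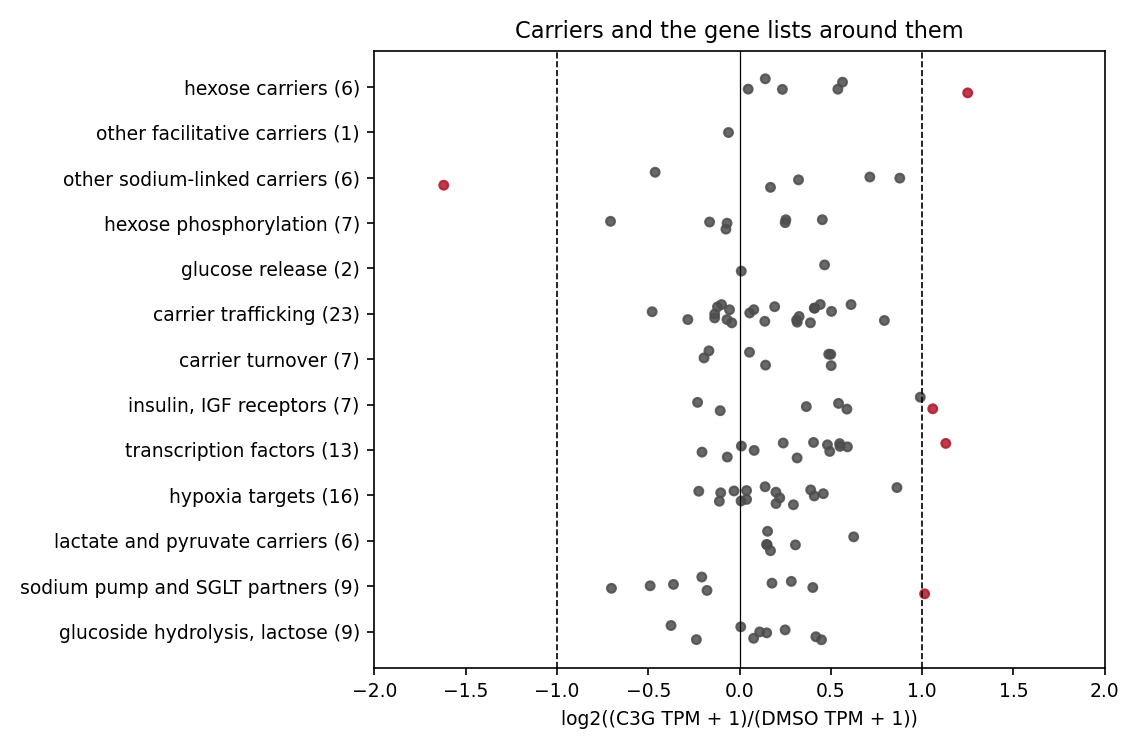
Log2 ratio of C3G over DMSO (1 TPM added) for each gene of the lists that reached 5 TPM in at least 1 library (number in brackets); red points are called by size and dashed lines mark the threshold. Besides Slc2a9, the calls are Slc5a5 on the lower side and Irs2, Pparg and Sgk1 on the higher side.

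Over all of these lists without the carriers, 105 of 135 genes reached 5 TPM. Of them 3 (2.86%) were called higher and 1 (0.952%) lower, beside 3.1% and 4.3% of all genes, and the median log2 ratio was 0.17.

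**Figure D5:**
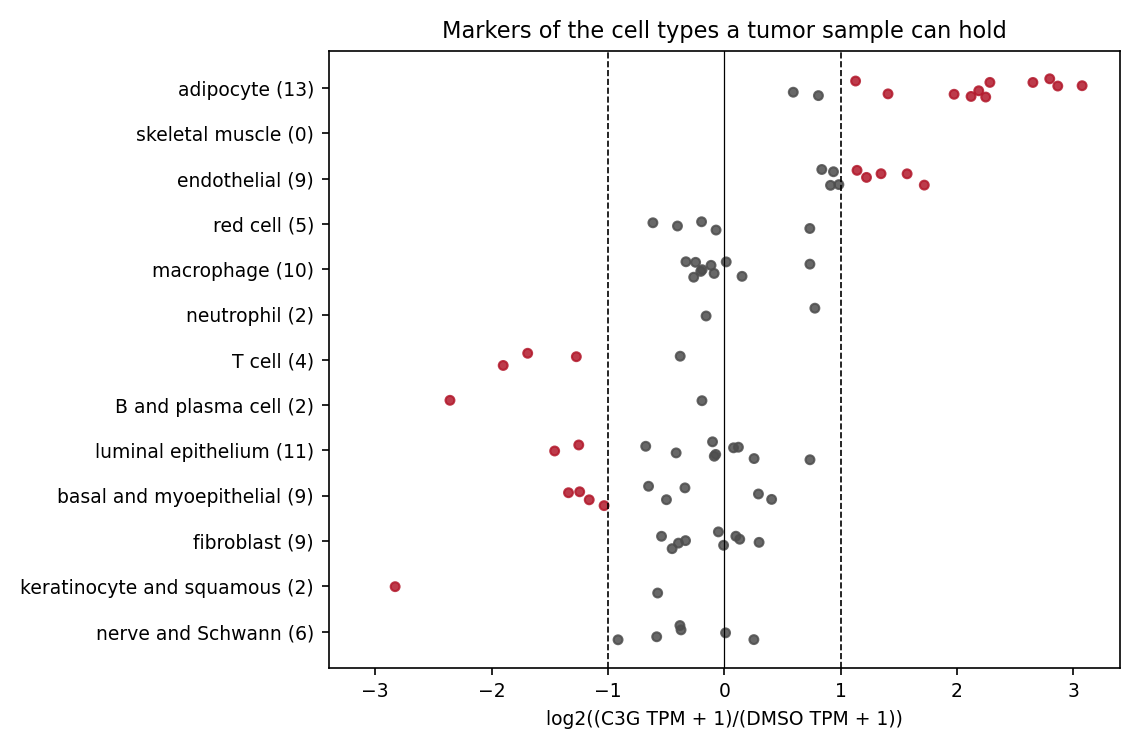
Log2 ratio of C3G over DMSO (1 TPM added) for marker genes of cell types that reached 5 TPM in at least 1 library (number in brackets), with genes called by size in red. Adipocyte and endothelial markers lie above 0, and T cell and most basal markers below.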

How the data were processed

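RNA was sequenced from 2 mammary tumors, 1 per group. Per the labels' protocols, RNeasy Plus kits yielded the RNA and TruSeq RNA v2, a kit that does not mark strand, the libraries. Per the submitters' processing notes, FastQC, MultiQC, Trimmomatic 0.38 and featureCounts 2.0.0 were used with mm10. The aligner is not given in the sources used here. The deposited values are TPM, and each column summed to 1000000.

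All 55536 identifiers matched GENCODE M21. TPM multiplied by exon-union length gave whole multiples of 1 step for 100% of values above 0, within 0.01 of a step, and these steps were taken as reads. The log2 ratio used a pseudocount of 1 TPM. Medians used genes with a mean of at least 1 TPM and calls a higher value of at least 5 TPM. Ratios have exact conditional and levels exact Poisson 95% intervals. Named genes were all 10 carriers and, per list, those called plus up to 4 with the largest log2 ratio that reached 5 TPM, and the 3 genes closest to Slc2a1. The members and lists were chosen with earlier results of these data known. The scripts were checked on simulated counts with known changes, which says nothing about the treatment. There were 8 alternative settings. Python 3.11.15, SciPy 1.17.1 and statsmodels 0.14.6 were used. No count test was run with 1 library per group. Marker and urate genes, Hk1, Hk2 and Car9 were named after their values were seen. 1 gene that the rule would name is not reported here.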

Additional observations from a re-analysis of the deposited data

How the results depend on the processing

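The results were computed under 8 alternatives: a pseudocount of 0.1 or 5 TPM, a stricter filter (mean of 5 TPM, 20 TPM for calls) or none, centring, rescaling without mitochondrial and the 50 most abundant genes, removal of the length trend, and reads scaled to library depth in place of TPM. The number of carriers called by size, 1 as reported, was 0 with a pseudocount of 5 and 0 with the stricter filter. The median log2 ratio of the carriers, 0.23 over 7 carriers as reported, was 0.11 under centring, 0.12 with the length trend removed and 0.17 with a pseudocount of 5. It was 0.14 with no filter, over 9 carriers, and 0.39 with the stricter filter, over 6. All of these were above 0. The ratio of their summed TPM, 1.18 as reported, was 1.19 after rescaling and 1.15 on reads scaled to depth. The log2 ratio of Slc2a9 ranged from 0.88 to 1.38, that of Slc2a1 from 0.01 to 0.15, that of Slc2a4 from 0.38 to 0.63 and that of Slc2a10 from 0.32 to 0.63. Over all genes, 396 higher and 550 lower calls were replaced by 179 and 309 with a pseudocount of 5, by 1086 and 1218 with no filter, by 109 and 241 with the stricter filter and by 190 and 311 on reads scaled to depth. The number of genes that could be called also changed, so these counts are not shares of the same set. It was 12780 as reported and with a pseudocount of 5, and 55536 with no filter. With the stricter filter it was 7189, and on reads scaled to depth 12252. The cause of any difference between the tumors was not tested. Depth limits Slc2a3, Slc2a12 and Slc5a2, with 0 to 12 reads per library. No paired analysis was possible because each group has 1 library.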
